A study of Mus musculus with 6 samples.

Results

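The clustered protocadherins are 3 neighbouring groups of cell-adhesion genes on mouse chromosome 18. They were described in hippocampal RNA in 3 libraries of the clothianidin (CLO) group and 3 of the vehicle control group. The 58 genes were taken from the 55411 rows with a gene identifier, among 56514 rows in all, by their symbols: 14 alpha, 22 beta and 22 gamma genes. CLO, a neonicotinoid, is an insecticide whose targets are nicotinic acetylcholine receptors. In the CLO group the treated animals were male C57BL/6N mice given 50 mg/kg/day, and the protocol states that the hippocampus came from offspring, so the exposure is read here as paternal. The control group received the vehicle, which the labels do not name. Sex, age, litter and sire are not given, so a p-value here covers only the variation among these libraries, some of which may come from 1 litter. The study asked whether paternal exposure alters hippocampal messenger RNA in the next generation.

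A protocadherin of these clusters is a single-pass membrane protein with a row of extracellular cadherin repeats. It binds the same isoform on a neighbouring cell, and the set of isoforms on a neuron helps it to tell its own branches from those of others. Each alpha and gamma gene has a variable first exon with a promoter of its own, which is spliced to constant exons that all genes of that cluster share. Beta genes consist of a single exon and have no constant part. Most promoters are chosen at random in each neuron, with the help of the DNA-binding protein CTCF and cohesin. The C-type genes at the end of the alpha and gamma clusters (Pcdhac1, Pcdhac2, Pcdhgc3, Pcdhgc4 and Pcdhgc5) are used more regularly.

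The libraries held 19637402 to 21189231 counts in CLO and 25232305 to 26812580 in control, of which 0.0178% to 0.0337% fell on the 58 genes. Markers of the dentate gyrus, CA1 and CA2 with CA3, lists added after seeing the data, were all detected. Control replicates 1 and 2 stood apart in other respects. Over 7 spermatid genes they had 11.4 and 4.52 CPM (counts scaled to library size, with TMM), and each other library had at most 0.192 CPM. Over 10 neocortex markers the CLO libraries had 219, 149.7 and 119 CPM, against 471, 401 and 188 CPM in the controls. In bulk tissue, fewer cells of a type and less RNA per cell cannot be told apart.

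Overlap of the genes limited what could be counted. By the GRCm38 annotation, matched by gene identifier for all 58 genes, a median of 46.4% of the exonic bases of an alpha gene and 55.3% of those of a gamma gene belonged to no other gene of the same strand. For a beta gene this median was 100%. The shared bases of alpha and gamma genes lie downstream of their own first exon, with a median of 2860 and 2119 bp after the last base of their own. By this annotation, 4 further gene models have exonic bases wholly within those of the protocadherin genes (Gm42416, Gm37013, Gm37388 and Gm38182). Of these, 3 had 0 counts and Gm38182 had 1 count over all libraries. Reads over shared exons were thus left out for these models, and the alpha and gamma values below are read as counts over each gene's own bases. The deposited lengths include the shared exons, and 56 of the 58 were within 10 bp of the annotated exonic length. TPM (a level per length, scaled to the same sum in each library) thus understates alpha and gamma genes against beta genes.

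Of the 58 genes, 53 passed the filter on low counts, with 2 to 1703 counts in any 1 library. The other 5 were 3 alpha genes, 1 beta gene and 1 gamma gene. Pcdha4 and Pcdha12 were at 0 counts in all 6 libraries, and Pcdhgc3, a C-type gene, had 1 count in control replicate 1 only. Pcdha4 keeps 8.56% of its exonic bases to itself, the lowest share of all, and shares 2410 bp with the model Gm42416 alone. By the same annotation Pcdha12 keeps 46.4% and Pcdhgc3 61.5%. Gm42416 has 2856 exonic bp there but 4529 bp in the deposited table, and Gm38182 has 1530 bp there but 11316 bp. Models thus differ between the annotations, and the counts near 0 set no upper level. Pcdha8 had 11 counts and Pcdhb1 5 counts over all libraries. A pair of rows carries the symbol Pcdha11, and they are told apart here by their identifiers.

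Pcdhgc5, a C-type gene whose protein binds GABA-A receptors, had the highest level of the 53 tested genes in 6 of 6 libraries. Its TPM were 15.1, 10.5 and 8.33 in CLO replicates 1, 2 and 3, and 8.21, 18.7 and 19.3 in control replicates 1, 2 and 3. The mean was 11.3 ± 3.45 TPM in CLO and 15.4 ± 6.23 TPM in control (SD, n = 3 each). Next in level per length over all libraries came Pcdhb9 (7.10 TPM) and Pcdhga11 (6.15 TPM), then Pcdhb12 (4.97 TPM), Pcdhb7 (4.46 TPM) and Pcdhac2 (4.40 TPM). These 5 genes do not have a firm order, since Pcdhga11 alone ranged from 3.14 to 9.75 TPM between libraries.

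The alpha genes were the lowest group. Apart from Pcdhac2, no alpha gene reached a mean of 1 TPM, and Pcdha9 (0.945 TPM) and Pcdha5 (0.695 TPM) led the rest. The median level of the tested genes was 0.502 TPM for alpha, 1.56 TPM for beta and 2.22 TPM for gamma. In both clusters with constant exons the last gene, Pcdhac2 or Pcdhgc5, was the highest tested gene of its cluster. The lowest tested gene was Pcdhgb8, at 0.131 ± 0.0952 TPM in CLO and 0.235 ± 0.182 TPM in control (SD, n = 3 each).

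Counting only each gene's own exonic bases, an alternative chosen after seeing the data, moved this order. The medians became 0.518, 0.683 and 1.72 CPM per kb for alpha, beta and gamma. Pcdhgc5 then stood at 3.06 times Pcdhb9, averaged over the libraries, against 1.85 times by deposited TPM. Of the 10 highest genes 6 were gamma, 3 beta and 1 alpha on this scale, against 4, 5 and 1 by deposited TPM. Pcdhac2 moved to the third rank. The own bases are those of the GRCm38 annotation, not of the models that were counted. These ranks and ratios thus hold at most as far as both annotations agree. The own bases of alpha and gamma genes also lie further from the 3' end, with medians of 2860 and 2119 bp after them. For beta genes this median was 0 bp. The RNA was poly(A)-selected, and the part of this distance in the levels was not tested.

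**Figure D1:**
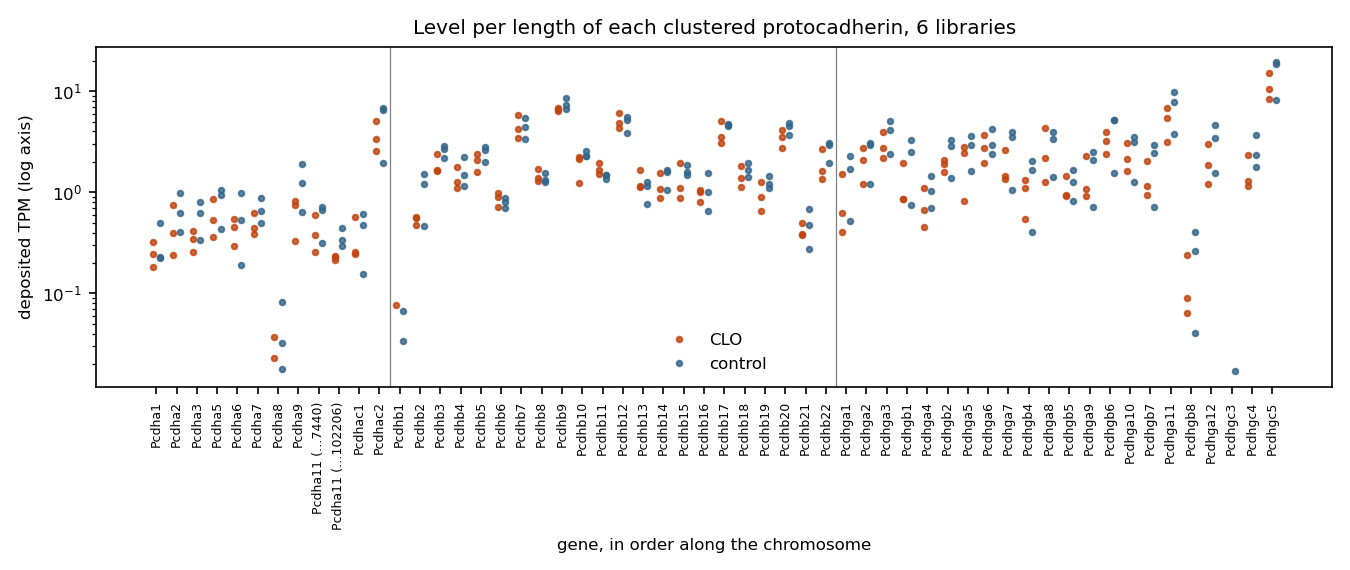
Deposited TPM (vertical, log axis) of the clustered protocadherins in each CLO and control library, with genes in their order along the chromosome and grey lines between the alpha, beta and gamma clusters. Pcdhac2 and Pcdhgc5 end their clusters at the highest levels drawn there. Pcdha4 and Pcdha12 have no counts and are left out, and single values of 0 are not drawn.

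Alpha and gamma genes differed between libraries as whole clusters, whereas the beta cluster differed less. The 14 alpha genes (chromosome 18, 37063237 to 37320714, GRCm39) summed to 24.5, 19.9 and 16.0 CPM in CLO replicates 1, 2 and 3, and to 12.6, 35.8 and 34.3 CPM in control replicates 1, 2 and 3. The 22 gamma genes (37794846 to 37974926) summed to 154, 125 and 99.4 CPM in CLO and to 80.0, 209 and 201 CPM in control. Both clusters had their lowest sum in control replicate 1 and their highest in control replicate 2, with all CLO libraries in between. The groups overlapped, and the spread among controls exceeded the difference of the means.

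The 22 beta genes (37397991 to 37657532) summed to 84.5, 79.6 and 78.4 CPM in CLO and to 78.3, 93.6 and 85.8 CPM in control. From the lowest to the highest library the beta sum differed 1.20-fold, the alpha sum 2.85-fold and the gamma sum 2.61-fold. Counting error does not cover the alpha and gamma spread, nor the smaller beta spread. In control replicate 1 the exact 95% Poisson interval of the gamma sum was 76.7 to 83.5 CPM, and in control replicate 2 it was 203 to 214 CPM. Such intervals cover counting error only.

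Measured against each other, alpha and gamma kept a nearly fixed ratio. The alpha sum was 0.159, 0.159 and 0.161 of the gamma sum in CLO, and 0.157, 0.172 and 0.171 of it in control. Against beta, the gamma sum was 1.83, 1.57 and 1.27 times as large in CLO, and 1.02, 2.23 and 2.34 times as large in control. These ratios do not depend on how the libraries were scaled. Whether the distance of the counted bases from the 3' end has a part in the ratios to beta was not tested.

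**Figure D2:**
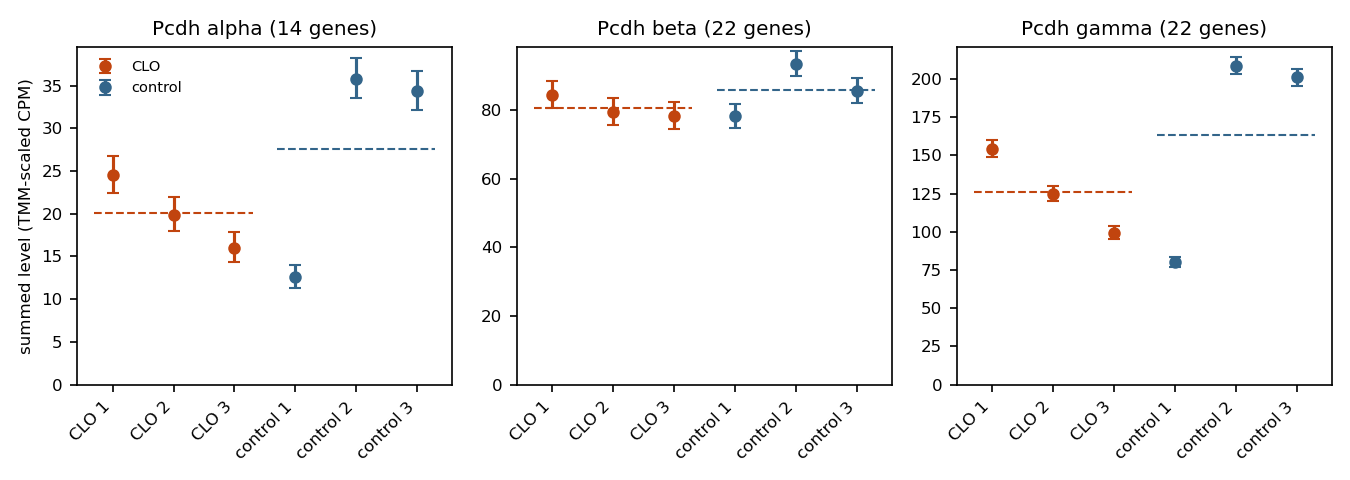
Summed TMM-scaled CPM of the alpha, beta and gamma genes in each library (points) with exact 95% Poisson intervals (bars) and group means (dashed lines). In the alpha and gamma panels control replicate 1 is lowest and control replicates 2 and 3 are highest, with the CLO libraries between them, while the beta sums lie between 78.3 and 93.6 CPM.

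Many single genes had the same lowest and highest libraries. Control replicate 1 was the lowest library for 22 of the 32 tested alpha and gamma genes and for 7 of 21 beta genes, where this held for 18.5% of all genes tested. A control replicate (2 or 3) was the highest library for all 32 tested alpha and gamma genes and for 13 of 21 beta genes. How often this held among all genes tested was not counted, so these counts have no background share beside them. Between its lowest and highest library an alpha gene differed by a median of 2.66-fold, a gamma gene by 3.02-fold and a beta gene by 1.74-fold. Pcdhb2 was the beta gene with the widest range, 3.37-fold. Its values were 0.640, 0.637 and 0.817 CPM in CLO, against 0.532, 1.79 and 1.5 CPM in control, the same order of controls as in the gamma cluster.

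**Figure D3:**
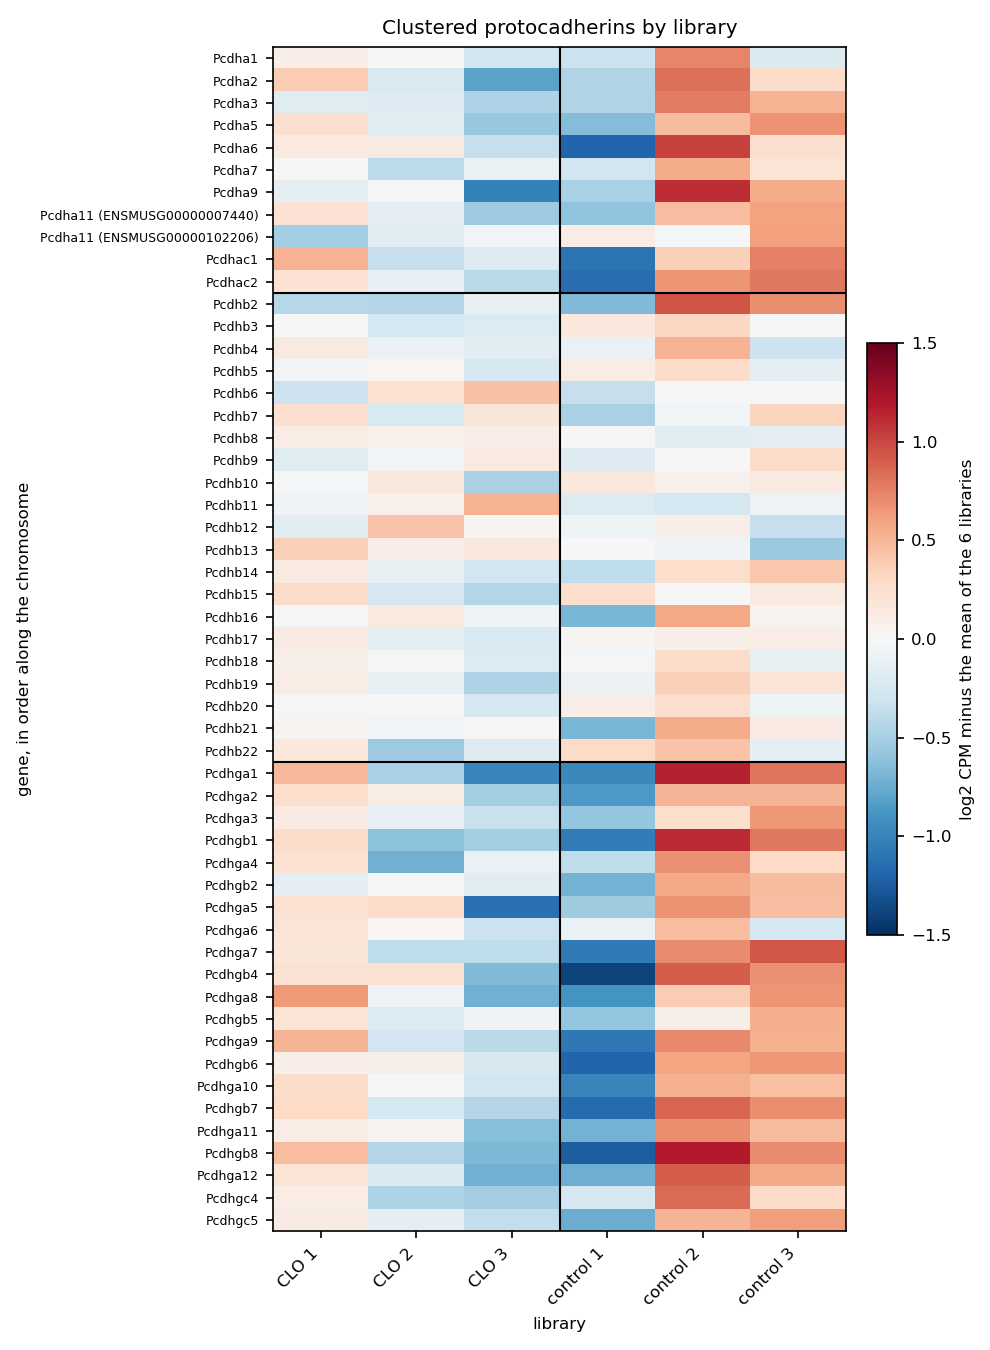
Log2 CPM of the 53 tested genes minus each gene's mean over the 6 libraries (colour), with CLO libraries on the left, control libraries on the right and black lines between clusters. Control replicate 1 is blue and control replicates 2 and 3 are red across most alpha and gamma rows, and the beta rows between them are paler.

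Pcdhgc5 took 29.8%, 30.7% and 33.0% of the gamma counts in CLO, and 31.6%, 28.9% and 32.5% in control. Pcdhga11 took 7.76% to 10.0% in CLO and 8.29% to 9.39% in control. Pcdhac2, which the serotonergic axons of mice need to tile their targets took 49.2%, 47.8% and 48.4% of the alpha counts in CLO. In control it took 36.9%, 45.6% and 52.2%. The exact binomial 95% interval in control replicate 1 was 31.6% to 42.3%, below that of control replicate 3 (48.9% to 55.6%). Pcdhb9 took 9.96%, 11.6% and 13.4% of the beta counts in CLO, and 10.6%, 10.1% and 13.6% in control. The share of Pcdhb9 was highest in replicate 3 of both groups. In CLO the exact binomial 95% intervals of replicates 2 (10.1% to 13.3%) and 3 (11.8% to 15.2%) overlapped. In control that of replicate 3 (12.2% to 15.1%) lay above those of replicates 1 and 2. Markers of serotonergic neurons, 4 in all, summed to 1.92, 2.06 and 3.83 CPM in CLO and to 2.35, 1.53 and 1.58 CPM in control. Tph2 and Slc18a2 were detected, Slc6a4 reached at most 0.0511 CPM in any library, and Fev was at 0.

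Other measurements moved with these sums in part. The slope of log2 level on log2 gene length over all genes tested was 0.0195, -0.0975 and -0.146 per doubling in CLO replicates 1, 2 and 3. In control replicates 1, 2 and 3 it was 0.00759, 0.141 and 0.0758. This order is that of the alpha and gamma sums except for control replicate 1, whose slope lay between those of CLO replicates 1 and 2 while its sums were the lowest. The part of length in the sums was not tested. Of 10 neocortex markers all 10 were found and none was at 0. Their sum was the highest in control replicate 1, where the alpha and gamma sums were the lowest. Of 7 neuron markers (among them Rbfox3, Snap25, Syt1 and Map2) none was at 0. They summed to 4533 to 4811 CPM in CLO and 4629 to 5188 CPM in control, but single markers diverged. Map2 was at 573, 446 and 440 CPM in CLO and at 409, 951 and 759 CPM in control. Its lowest and highest libraries were those of the alpha and gamma sums. Rbfox3 was at 300, 303 and 280 CPM in CLO and at 378, 277 and 269 CPM in control, highest in control replicate 1. The 10 dentate granule cell markers, none of them at 0, summed to 509.9, 529 and 438 CPM in CLO and to 390.4, 448 and 557 CPM in control. Of the 7 markers of CA2 and CA3 neurons none was at 0, and they summed to 337, 394 and 399 CPM in CLO and to 244, 197 and 289.5 CPM in control. The part of these cell types in the protocadherin values was not tested.

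Between CLO and control no clustered protocadherin passed the test. By edgeR's quasi-likelihood test 0 of 53 members had an adjusted p under 0.05, where 0 of 16129 genes passed (0%). At an unadjusted p under 0.05, 1 member (Pcdha9) was lower and none was higher in CLO, where 7.26% of all genes tested were lower and 6.18% higher. DESeq2 also called 0 members, where 1.41% of the genes with an adjusted p passed. At an unadjusted p under 0.05 it had 2 of 56 members lower (Pcdha9 and Pcdhgc4), where 4.47% of genes were lower. With no filter edgeR had 9 of 56 members lower at that level, where 8.27% of genes were. Limma-voom called 0 members, with 0 at that level, where 6.68% of genes were lower. The adjusted p of the members ran from 0.368 to 0.949 by edgeR.

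The fold changes of alpha and gamma genes nonetheless had 1 sign. All 11 tested alpha genes and all 21 tested gamma genes had lower means in CLO, as had 15 of 21 beta genes, where 51.8% of all genes tested were lower. The genes of a cluster move together and are not independent, so these counts carry no test. The median log2 fold change (CLO over control) was -0.41 for alpha, -0.36 for gamma and -0.11 for beta, against -0.01 over all genes tested. With the trend on deposited length, shared exons included, removed from each library, these medians were -0.32, -0.29 and -0.13. The SE of single genes, with a median of 0.32, was of the same size. Summed over members, the alpha level was 20.1 ± 4.24 CPM in CLO and 27.6 ± 13.0 CPM in control, and the gamma level was 126 ± 27.6 CPM in CLO and 163 ± 72.1 CPM in control (SD, n = 3 each). The beta sum was 80.8 ± 3.23 CPM in CLO and 85.9 ± 7.66 CPM in control.

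The size of these differences depended on single libraries of both groups. Without control replicate 1, 20 of 53 members had an unadjusted p under 0.05 and lower values in CLO, of which 15 were gamma, 4 alpha and 1 beta genes, where 12.1% of all genes tested were lower in that fit. None passed the adjusted threshold by edgeR then either, with a smallest adjusted p of 0.0861 among members. The medians were -0.73 for alpha, -0.69 for gamma and -0.18 for beta. Without control replicate 2 instead, the medians were -0.21, -0.12 and -0.06, and no member reached an unadjusted p under 0.05. For alpha and gamma the medians were -0.58 and -0.54 without CLO replicate 1, -0.39 and -0.37 without CLO replicate 2, -0.22 and -0.20 without CLO replicate 3, and -0.33 and -0.21 without control replicate 3. Without CLO replicate 1, 3 members were lower at an unadjusted p under 0.05, where 12.1% of all genes tested were. Without control replicates 1 and 2, the libraries with spermatid RNA, 13 members were lower at that level, where 3.77% of all genes tested were lower. That fit, chosen after seeing the data, has 1 control library, which is assumed to vary like the CLO libraries.

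**Figure D4:**
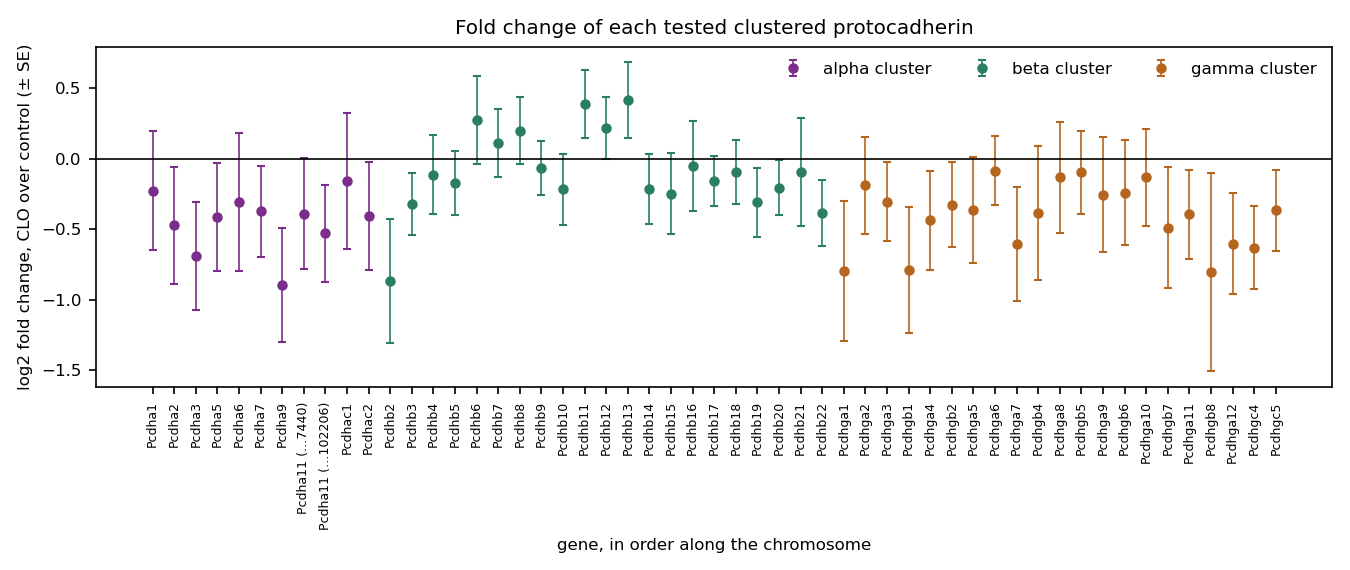
Log2 fold change of CLO over control (points) with its SE (bars) for each of the 53 tested genes, in order along the chromosome and coloured by cluster. All alpha and gamma points lie below 0, beta points lie on both sides, and most bars of the alpha and gamma genes are longer than those of the beta genes.

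Among the alpha genes, Pcdha9 had the smallest unadjusted p. Its values were 1.77, 1.91 and 0.919 CPM in CLO, against 1.37, 4.30 and 2.92 CPM in control. The log2 fold change was -0.90 ± 0.41 (SE), with an unadjusted p of 0.0483 and an adjusted p of 0.368 by edgeR. Control replicate 1 lay among the CLO libraries, so the groups overlapped. Pcdha3 was at 0.886, 0.882 and 0.715 CPM in CLO and at 0.721, 1.79 and 1.5 CPM in control (log2 fold change -0.69 ± 0.38). The row of Pcdha11 with the identifier ENSMUSG00000102206 was at 0.640, 0.833 and 0.919 CPM in CLO and at 1.03, 0.934 and 1.5 CPM in control. It was 1 of 2 members whose CLO libraries all lay below all control libraries, the other being Pcdhb3, where this held for 6.7% of all genes tested. Pcdha5 was at 1.77, 1.32 and 0.970 CPM in CLO, against 0.911, 2.09 and 2.42 CPM in control. These alpha genes rest on 13 to 115 counts per library.

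Of the C-type genes, Pcdhac2 was at 12.1, 9.51 and 7.76 CPM in CLO and at 4.63, 16.3 and 17.9 CPM in control. The fitted log2 fold change of -0.41 ± 0.38 (SE) had an adjusted p of 0.631 by edgeR. Control replicate 1 was below every CLO library and the other controls were above. Pcdhac1 was far lower, at 1.23, 0.637 and 0.715 CPM in CLO and 0.342, 1.08 and 1.46 CPM in control. Control replicate 1 was its lowest library too, but CLO replicate 1 exceeded control replicate 2. Pcdhgc4, which supports the survival of interneurons in mice, was at 5.22, 3.48 and 3.32 CPM in CLO and at 3.99, 8.74 and 5.88 CPM in control. It differed from the other C-type genes in that control replicate 1 lay within the CLO range. It had a log2 fold change of -0.63 ± 0.30 and an adjusted p of 0.382. Pcdhgc5 was at 46.0, 38.4 and 32.8 CPM in CLO and at 25.3, 60.2 and 65.4 CPM in control. Its log2 fold change of -0.36 ± 0.29 came with an adjusted p of 0.564, on 643 to 1703 counts per library, so its SE is not set by low counts.

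Among the gamma A and gamma B genes, control replicate 1 was the lowest library for 8 of 12 and 7 of 7. In the other gamma A genes, CLO replicate 3 (Pcdhga1, Pcdhga5 and Pcdhga6) or CLO replicate 2 (Pcdhga4) was the lowest. Pcdhga6 was at 6.94, 6.17 and 4.80 CPM in CLO and at 5.62, 8.37 and 4.99 CPM in control, so control replicate 3 was below control replicate 1 there. Pcdhga11, the highest of them, was at 12.9, 12.5 and 7.71 CPM in CLO and at 7.33, 19.6 and 16.7 CPM in control. Pcdhgb6 was at 7.33, 7.30 and 5.82 CPM in CLO and at 2.96, 10.4 and 10.8 CPM in control. Pcdhgb1 was at 4.97, 2.65 and 2.86 CPM in CLO and at 1.94, 9.01 and 7.18 CPM in control, with a log2 fold change of -0.79 ± 0.45. In each of these 3 genes control replicate 1 had the lowest value of all. Pcdhga12 was at 8.02, 5.98 and 4.19 CPM in CLO and at 4.18, 13.1 and 10.3 CPM in control (log2 fold change -0.60 ± 0.36). Over the 12 gamma A genes the log2 fold changes ran from -0.80 to -0.08 and over the 7 gamma B genes from -0.81 to -0.10.

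Beta genes differed less and in both directions. Pcdhb9, the highest, was at 8.42, 9.26 and 10.5 CPM in CLO and at 8.32, 9.49 and 11.7 CPM in control, a log2 fold change of -0.06 ± 0.19. Pcdhb12 was at 5.86, 8.92 and 6.79 CPM in CLO and at 6.30, 7.06 and 5.19 CPM in control. Pcdhb7 was at 8.07, 5.73 and 7.66 CPM in CLO and at 4.78, 6.58 and 8.53 CPM in control. For all 3 the libraries of both groups were mixed in order. Pcdhb2 (log2 fold change -0.87 ± 0.44, adjusted p = 0.405 by edgeR) and Pcdhb22 (-0.38 ± 0.24, adjusted p = 0.473) had the smallest p of the lower beta genes. Pcdhb22 was at 7.09, 4.31 and 5.51 CPM in CLO and at 7.82, 8.52 and 5.72 CPM in control, and it shares 455 exonic bp with Pcdhb21. Pcdhb11 was the highest-ranked by p of the 6 beta genes with higher means in CLO, at 2.95, 3.23 and 4.44 CPM against 2.66, 2.54 and 2.92 CPM in control. Its CLO libraries all lay above all control libraries, as did those of Pcdhb8 and Pcdhb13. This held for 3 of 53 members, where it held for 7.84% of all genes tested.

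The nearest tested genes outside the clusters varied little between libraries. Zmat2, upstream of the alpha cluster, was at 197, 207 and 203 CPM in CLO and at 219, 176 and 175 CPM in control. Taf7, a transcription factor subunit gene between the beta and gamma clusters, was at 5.81, 6.13 and 5.72 CPM in CLO and at 7.29, 6.20 and 5.76 CPM in control. In both, control replicate 1 was the highest library. Diaph1, which lies downstream of the gamma cluster and encodes a formin of actin assembly, was at 73.4, 69.1 and 57.6 CPM in CLO and at 67.7, 78.5 and 73.5 CPM in control. Its highest libraries were control replicates 2 and 3, as in the alpha and gamma clusters, but CLO replicate 3 was its lowest. The adjusted p by edgeR was 0.797 for Zmat2, 0.782 for Taf7 and 0.690 for Diaph1.

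Protocadherins outside the clusters had lower means in CLO for most members. Of 12 listed genes 11 were tested, with a median log2 fold change of -0.44. Of these 11, 8 had lower and 3 higher means, where 51.8% of all genes tested were lower. By edgeR 0 passed, as of all 16129 genes, and 6 of 11 were lower at an unadjusted p under 0.05, where 7.26% of all genes tested were. Pcdh11x, an X-linked gene of the delta family, was at 3.74, 4.31 and 4.60 CPM in CLO and at 9.49, 8.93 and 6.26 CPM in control. Its log2 fold change of -0.96 ± 0.22 had an adjusted p of 0.195 by edgeR. Pcdh7, also of the delta family, was at 34.9, 27.5 and 23.2 CPM in CLO and at 45.8, 51.5 and 36.5 CPM in control (log2 fold change -0.64 ± 0.19, adjusted p = 0.247). In both genes every CLO library lay below every control library, and control replicate 1 was not low. Pcdh11x passed by DESeq2, and both passed in edgeR with no filter. Both genes are long (13949 bp for Pcdh11x, 10663 bp for Pcdh7). By library, the median deviation of this list had the same order as the length slope in all 6 libraries. The part of gene length in this list was not tested.

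The seven-pass and other very large cadherins included the Celsr, Fat and Dchs genes of planar cell polarity. In this list 8 of 8 tested genes had lower means in CLO, where 51.8% of all genes tested were lower. The median log2 fold change of the list was -0.81, and 0 passed by edgeR. An unadjusted p under 0.05 by edgeR was found for 6 of 8, where 7.26% of all genes tested were lower at that level. Dchs2 was at 0.443, 0.637 and 0.562 CPM in CLO and at 0.835, 1.76 and 1.38 CPM in control, with an adjusted p of 0.260. Fat1 was at 14.6, 7.79 and 7.15 CPM in CLO and at 11.6, 29.1 and 16.2 CPM in control, with an adjusted p of 0.301. Control replicate 1 lay within the CLO range for Fat1 but above it for Dchs2. These genes are long (10783 bp for Dchs2, 15849 bp for Fat1), and the median deviation of the list by library had the same order as the length slope in all 6 libraries. The part of gene length in these values was not tested.

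**Figure D5:**
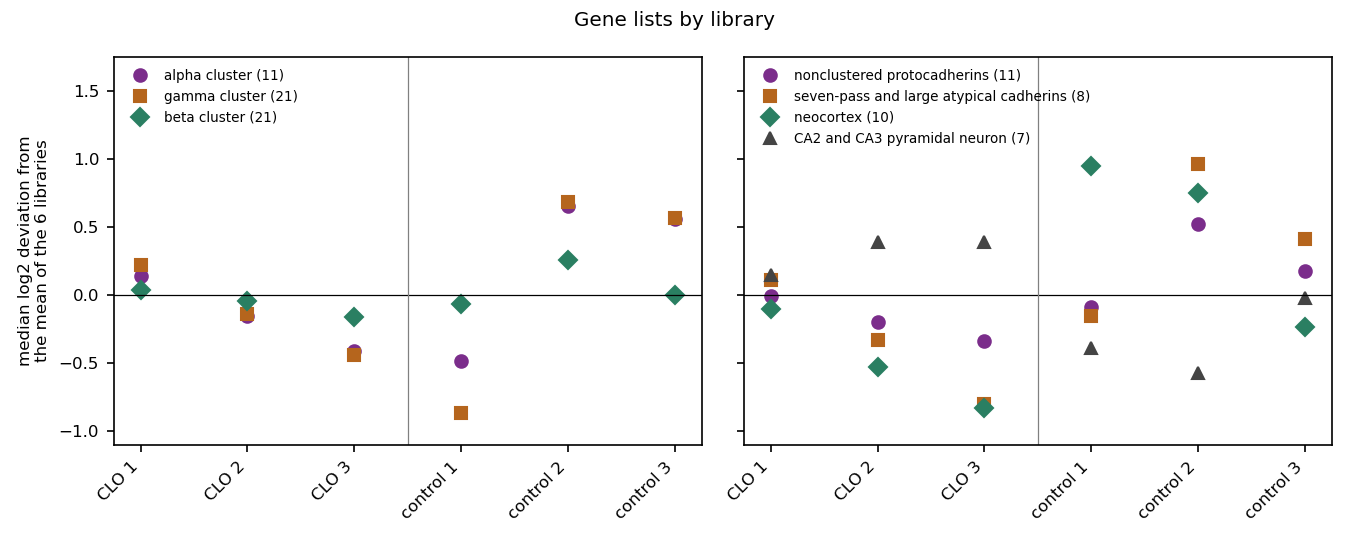
Median log2 deviation of each list from its mean over the 6 libraries (vertical), by library, with the number of tested genes in brackets. On the left the alpha and gamma medians reach -0.49 and -0.87 in control replicate 1 while beta stays between -0.16 and 0.26. On the right the neocortex markers are highest in control replicate 1 (0.95), where CA2 and CA3 markers stand at -0.39.

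Regulators of promoter choice had slightly lower means in CLO. Of 18 listed genes of CTCF, cohesin and its loaders, DNA methylation and heterochromatin, 17 were tested. Of these, 16 had lower means in CLO, where 51.8% of all genes tested were lower. The median was -0.22 on the log2 scale, with 0 passing by edgeR. Dnmt3a, a de novo DNA methyltransferase, was at 18.4, 13.8 and 7.71 CPM in CLO and at 23.7, 24.2 and 14.9 CPM in control. Its unadjusted p of 0.0401 by edgeR was the only one of the list under 0.05, and its adjusted p was 0.358. At that unadjusted level 7.26% of all genes tested were lower in CLO. Stag1, a cohesin subunit, was at 18.01, 13.3 and 12.5 CPM in CLO and at 14.9, 21.8 and 21.6 CPM in control (adjusted p = 0.398). For Dnmt3a control replicate 1 was near the highest library, and for Stag1 it lay within the CLO range.

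Signalling partners of protocadherins inside the cell, such as the WAVE complex and focal adhesion kinases, went both ways. Of 20 genes tested 8 had lower and 12 higher means in CLO, where 51.8% of all genes tested were lower. The median log2 fold change of the list was 0.02. By edgeR 0 passed and 0 had an unadjusted p under 0.05, where 7.26% of all genes tested were lower and 6.18% higher. Rhoa, a small GTPase of the cytoskeleton, was at 169, 178 and 205 CPM in CLO and at 145, 148 and 157 CPM in control (adjusted p = 0.383). Its CLO libraries all lay above the controls. Brk1, a small subunit of the WAVE complex, was at 157, 182 and 199.9 CPM in CLO and at 171, 117 and 137 CPM in control (adjusted p = 0.398), with the groups overlapping.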

How the data were processed

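The authors deposited raw read counts, whole numbers for each gene and library, with no normalization. The authors also deposited TPM with the symbol, position and length of each gene, and these values were recomputed from the counts to within 0.0005. Per the submitters' processing notes, cutadapt 2.9, HISAT2 2.2.0, featureCounts 2.6.0 and GRCm39 were used, with no role or order. How multi-gene reads were counted is not given in those notes. Per the labels' protocols, RNA was poly(A)-selected with a strand-keeping kit.

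The 1103 rows without a gene identifier (0.640% to 0.780% of counts) were left out. The main test was that of edgeR 4.0.16 under R 4.3.3 (filterByExpr, TMM, robust quasi-likelihood test, two-sided, CLO against control without a block), with Benjamini-Hochberg adjustment over 16129 genes at 0.05. DESeq2 1.42.0 and limma-voom (limma 3.58.1) were alternatives. Log2 values by library used a prior count of 2. Exon overlap came from the GENCODE M21 annotation of GRCm38 by gene identifier. Libraries of a group differed beyond sampling noise.

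Members and lists were chosen with earlier results of these data known. Values in every library are given for the C-type genes, for the 3 genes of highest mean TPM and the 3 of smallest p in each cluster, and for the 2 of smallest p in each pathway list. Pcdhb3, Pcdhb8, Pcdhb13, Pcdhga6, Pcdhgb8, Pcdh11x by other settings, and the neighbouring genes were named after their values were seen. No sequences are printed here.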

Additional observations from a re-analysis of the deposited data

How the results depend on the processing

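The count of clustered protocadherins past the adjusted threshold was 0 in all 15 other settings, DESeq2, limma-voom and each fit without 1 library among them. Over all genes the count was 0 in edgeR, 198 by DESeq2 and 699 with no filter, and 0 to 20 with 1 library left out. Members at an unadjusted p under 0.05 numbered 1 in edgeR, 2 by DESeq2, 9 with no filter and 13 without control replicates 1 and 2. They numbered 0 by limma-voom, with a stricter filter, with the length trend removed and with the replicate number as a block, and 0 to 20 with 1 library left out. Of all genes, 1057 of 14020 were lower at that level with the stricter filter. With the length trend removed 900 of 16129 were, and with the block 1083 of 16129. With 1 library left out this ran from 353 of 16228 (without control replicate 2) to 1996 of 16555 (without CLO replicate 1). Deviations of same-numbered libraries had correlations of r = -0.157, -0.0948 and 0.277, where other pairs ran from -0.376 to 0.429. With 3 libraries per group this cannot decide whether the numbers pair the libraries. The replicate block gave 0 genes past the threshold. With 1 library left out, the median log2 fold change ran from -0.73 to -0.21 for alpha, from -0.18 to -0.06 for beta and from -0.69 to -0.12 for gamma. The log2 ratio of sums ran from -0.80 to -0.22 for alpha, from -0.15 to -0.02 for beta and from -0.70 to -0.15 for gamma. Per own exonic base of the GRCm38 annotation, Pcdhgc5 was 3.06 times Pcdhb9. The sign turned for Pcdhac1 by limma-voom (0.023) and for Pcdhb7 without control replicates 1 and 2 (-0.25). With 1 library left out, log2 fold changes crossed 0 for Pcdhac1 (-0.56 to 0.27), Pcdhb9 (-0.17 to 0.080), Pcdhb7 (-0.082 to 0.33) and Pcdhgb6 (-0.64 to 0.032). The cause was not tested.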
